A study of Mus musculus with 23 samples.

Results

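Amino acid transporters of the plasma membrane and the lysosome were followed in the head of the mouse pancreas before and after caerulein pancreatitis. Members were the genes of the Slc1, Slc3, Slc6, Slc7, Slc36, Slc38 and Slc43 families, chosen by symbol, plus Slc16a10. The count tables named 52 such genes among 18512 in all. Of these, 32 had at least 10 counts in 7 or more mice and are described one by one, and 20 lay below that minimum. All mice were C57BL/6 animals of both sexes, aged 6 to 8 weeks. Baseline mice (n = 8, 4 female and 4 male) were not injured. The injured mice received caerulein, an analog of cholecystokinin that makes acinar cells secrete beyond their normal rate and injures them, at 50 µg/kg in 8 hourly intraperitoneal injections a day on 2 consecutive days. They were killed at day 7 (n = 8, 4 female and 4 male) or day 14 (n = 7, 3 female and 4 male) post-injury. Each library came from 1 mouse and was made from total RNA of a piece of pancreas after ribosomal RNA was removed. The study asked which transcripts still differed from baseline while the gland recovers.

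Acinar cells, which fill most of the gland, make large amounts of digestive enzymes and therefore draw heavily on amino acids from the blood. Transporters of the Slc38 (SNAT) family carry small neutral amino acids such as glutamine, alanine and serine. So do Slc1a4 and Slc1a5 of the Slc1 family, whose other members carry glutamate. Those of the Slc7 family carry arginine and lysine or work as light chains joined to a heavy chain of the Slc3 family. Slc36a1 of the Slc36 family and Slc38a9 act at the lysosome. When amino acids run short, the kinase GCN2 raises translation of the transcription factor ATF4, which switches on genes of amino acid synthesis and uptake, while a sufficient supply keeps the kinase complex mTORC1 active at the lysosome.

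Total counts ran from 7059890 to 9567446 per mouse, and 14641 to 16653 genes had a count. Levels are CPM, the counts scaled to a common library size, on library sizes scaled by TMM, which sets library sizes on the assumption that most genes do not differ between mice. That scaling matters here, because the 20 most abundant genes took 69.4% ± 1.48 (SD, n = 8) of the counts at baseline, 60.3% ± 2.43 (n = 8) at day 7 and 65.0% ± 0.869 (n = 7) at day 14. The 32 members together held 0.138% ± 0.00838 of all counts at baseline, 0.159% ± 0.00749 at day 7 and 0.148% ± 0.00997 at day 14, so that their share of the library was higher after injury. Their summed level on the TMM scale was instead lower, at 1610 ± 106 CPM at baseline, 1361 ± 98.5 CPM at day 7 and 1496 ± 133 CPM at day 14. All directions given here are on the TMM scale unless another is named. In bulk tissue, fewer cells of a type and less RNA per cell cannot be told apart.

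Levels can be compared between genes only per length, and for this the CPM of each gene was divided by the exonic length of its gene model (GRCm38). Slc38a5 (SNAT5), which exchanges glutamine, histidine, serine and other neutral amino acids with sodium and protons, had the highest level of the 32 members at baseline, 90.8 ± 21.7 CPM per kb (SD, n = 8). Slc38a2 (SNAT2), a sodium-coupled importer of small neutral amino acids, was next at 42.9 ± 6.04 CPM per kb. Below it stood Slc7a8 (LAT2), a light chain that exchanges neutral amino acids, at 39.3 ± 2.79 CPM per kb. The less studied family member Slc38a10 was at 37.0 ± 3.01 CPM per kb. Slc3a2, the heavy chain known as CD98hc, was at 36.7 ± 5.26 CPM per kb. Slc38a3 (SNAT3), the closest relative of Slc38a5, followed at 34.2 ± 2.84 CPM per kb. The glycine transporter Slc6a9 (GLYT1) was at 24.7 ± 2.54 CPM per kb, the light chain Slc7a5 (LAT1) at 20.2 ± 2.68, the neutral amino acid exchanger Slc1a5 (ASCT2) at 16.6 ± 1.23 and the arginine and lysine transporter Slc7a1 (CAT1) at 14.3 ± 2.38. These 10 genes held 86.3% of the summed level per kb and Slc38a5 alone held 22%. From the highest to the lowest member, Slc7a14 at 0.190 ± 0.0847 CPM per kb, the span was 477-fold.

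In this order, the ranges of 27 of 31 neighbouring pairs overlapped at baseline. Both genes of a pair were measured in the same mice and were not compared within mice, so overlap does not show that their levels were alike. The 4 gaps were those between Slc38a5 and Slc38a2, between Slc38a3 and Slc6a9, between Slc7a1 and Slc7a2, and between Slc1a3 and Slc38a7. The same 10 genes led at every time point, with Slc38a5 first and Slc38a2 second in each, whereas Slc7a8 stood in place 3 at baseline, 6 at day 7 and 4 at day 14.

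**Figure D1:**
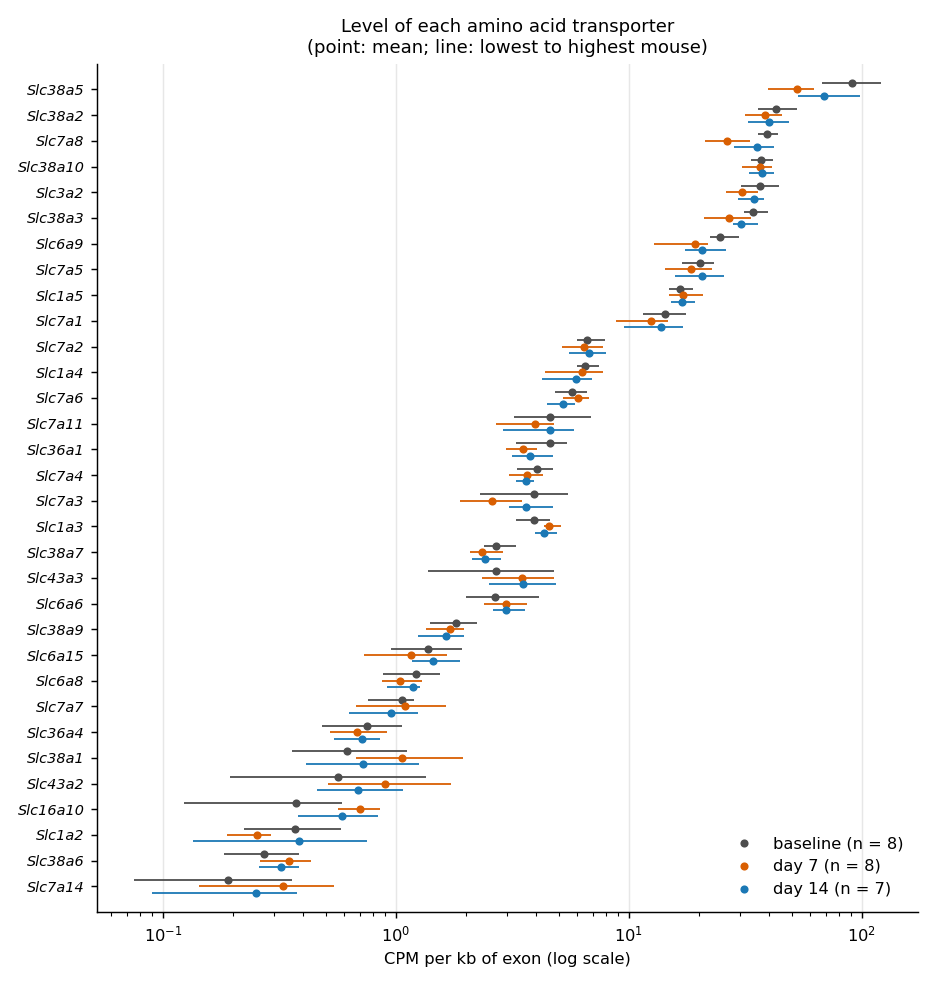
Level of each of the 32 amino acid transporters in CPM per kb of exon on a log axis, as the mean (point) and the lowest to highest mouse (line) at baseline, day 7 and day 14. Slc38a5 lies at the top with a baseline mean of 90.8 CPM per kb and Slc7a14 at the bottom with 0.190.

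Some of these genes are known targets of ATF4, which binds sequences of the form TGATGNAA together with a C/EBP protein. Promoter windows of 300 bases (250 before and 50 after the annotated start, RefSeq, GRCm38.p6) were found by symbol for 21 of the 32 members. The letters TGATGNAA, on either strand (reverse complement TTNCATCA), were present in the windows of 3 of these 21 genes (14.3%), against 4.51% of the 27025 genes and 3.97% of the 32851 windows in the table. The 3 genes were Slc7a11 (xCT), the light chain that imports cystine in exchange for glutamate, Slc1a4 (ASCT1), an exchanger of alanine, serine and cysteine, and Slc7a7 (y+LAT1), a light chain for cationic amino acids. The stretches of Slc7a11 and Slc1a4 are shown as examples of the letters in both orientations. They are written 5′ to 3′ on the strand of the gene, and capitals mark the 8 letters that match in either orientation.
Slc7a11 (chr3:50443653-50443679, minus strand): TGATGCAAacctggagaatTTGCATCA
Slc1a4 (chr11:20332700-20332727, minus strand): gcctcctgcgTTGCATCAtctccagcct
The window of Slc7a11 held 2 matches facing each other, which began 66 and 47 bases before the start, and that of Slc1a4 held 1 match, which began 4 bases before it. A match of letters is not evidence that the factor was bound in these glands.

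Between baseline and day 7, 9 of the 32 members had an adjusted p of at most 0.05 in the edgeR quasi-likelihood test with sex as a covariate. Levels fell for 7 of them (9.49% of the 12500 genes tested fell by the same rule) and rose for 2 (8.50% of all genes rose). With the study's further requirement of a 1.5-fold change, Slc38a5 and Slc7a3 were lower (1.34% of all genes) and Slc16a10 was higher (3.75% of all genes). This count of 3 DEGs became 5 without baseline mouse 5 or without day 7 mouse 9, 11 or 13. The median log2 fold change was -0.13 over the members and 0.02 over all genes tested. A negative value was found in 21 members and a positive one in 11, while 46% of all genes had a negative value. Of the 10 members with the highest level per kb, 5 were among those that fell (Slc38a5, Slc7a8, Slc3a2, Slc38a3 and Slc6a9). In 3 members, Slc38a5, Slc7a8 and Slc6a9, every day 7 mouse was below every baseline mouse, as was the case for 1.58% of all genes.

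The scale decided part of these directions. Scaling by total counts moved the median log2 fold change of all genes to 0.48 at day 7, and of all genes with an adjusted p of at most 0.05 the share that fell went from 52.7% to 0.699% (29.0% when the 20 most abundant genes were left out of the total). Scaled by total counts, 1 member was lower and 22 were higher, while 66 of the 12500 genes tested were lower and 9375 higher. All later counts of genes that rose or fell by total counts stand beside these numbers over all genes. Slc36a1, Slc38a3, Slc6a9 and Slc3a2 changed sign. Adding the mapping rate of the library as a covariate left 1 of the 9 members, Slc38a5 (-0.84, adjusted p = 0.016), with an adjusted p of at most 0.05, while DEGs over all genes went from 637 to 98. All 9 kept their sign in that fit, with log2 fold changes of -0.73 in Slc7a3, -0.49 in Slc7a8, -0.37 in Slc36a1, -0.21 in Slc38a3, -0.19 in Slc3a2, -0.05 in Slc6a9, 0.40 in Slc16a10 and 0.30 in Slc1a3. The mapping rate itself was higher in every injured library than in all baseline libraries but 1, so that its part in these changes and that of the injury cannot be told apart.

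Among the sodium-coupled SNAT transporters, 2 of the 7 measured members fell at day 7 and 5 did not pass the test (1 fell and 5 rose by total counts). Slc38a5 lies on chrX:8271133-8280179 (plus strand). Its lowest, median and highest levels were 149, 193 and 269 CPM at baseline, 88.4, 123 and 138 CPM at day 7, and 119, 148 and 218 CPM at day 14. All 8 day 7 mice lay below all baseline mice, and 4 of 7 day 14 mice did. The log2 fold change at day 7 was -0.76 (SE 0.10, adjusted p = 8.8e-06, edgeR), a 1.69-fold fall. Slc38a3 ran from 112 through a median of 119 to 141 CPM at baseline and from 74.8 through 94.8 to 119 CPM at day 7, so that 7 of 8 day 7 mice were below every baseline mouse. It fell by 0.34 on the log2 scale (SE 0.08, adjusted p = 0.0024), although its value was 0.10 when scaled by total counts. Slc38a2 (log2 fold change -0.16, adjusted p = 0.23), Slc38a10 (-0.02, adjusted p = 0.86) and the lysosomal glutamine transporter Slc38a7 (-0.20, adjusted p = 0.12) did not pass. Positive values that also missed the threshold belonged to Slc38a1 (SNAT1), a close relative of Slc38a2 (0.77, SE 0.27, adjusted p = 0.055), and Slc38a6 (0.34, adjusted p = 0.14).

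For the heteromeric transporters, the heavy chain and 1 of the 5 measured light chains fell (none fell by total counts, and the heavy chain and 3 light chains rose). Slc7a8 (chr14:54722209-54781946, minus strand) had values of 147, 160 and 179 CPM (lowest, median, highest) at baseline, 86.8, 102 and 135 CPM at day 7, and 115, 140 and 171 CPM at day 14. The baseline and day 7 mice did not overlap. Its log2 fold change of -0.57 (SE 0.09, adjusted p = 1.4e-04) was a 1.48-fold fall, just short of the 1.5-fold limit and therefore not counted as a DEG. Slc3a2, which brings light chains to the cell surface, overlapped between the groups, with 92.1, 109 and 134 CPM at baseline and 79.3, 93.2 and 108 CPM at day 7. It fell by 0.26 (SE 0.08, adjusted p = 0.023), a call that ended without baseline mouse 1 (adjusted p = 0.070) or without day 7 mouse 15 (adjusted p = 0.059), and the sign turned under scaling by total counts (0.19). The light chains Slc7a5 (-0.12), Slc7a6 (0.08), Slc7a7 (0.05) and Slc7a11 (-0.22) had adjusted p-values from 0.36 to 0.87. The other heavy chain, Slc3a1, was below the count minimum, with 12 counts at most.

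Of the 5 cationic transporters, which carry arginine, lysine and ornithine or are relatives of those that do, Slc7a3 (CAT3, chrX:101079210-101086020, minus strand) fell (by total counts it had -0.15, and the other 4 rose). Its lowest, median and highest levels were 6.67, 12.1 and 16 CPM at baseline, 5.51, 7.34 and 10.1 CPM at day 7 and 8.89, 10.4 and 13.8 CPM at day 14. The groups overlapped, with 3 of 8 day 7 mice below every baseline mouse. The log2 fold change was -0.61 (SE 0.14, adjusted p = 0.0026), or 1.53-fold lower. The adjusted p passed without any 1 mouse (highest 0.0070), but the change dropped under 1.5-fold without baseline mouse 1 (-0.49) or without day 7 mouse 12 (-0.58). The more abundant Slc7a1 (-0.19, adjusted p = 0.27) and Slc7a2 (-0.04, adjusted p = 0.76), the main arginine carriers of many tissues, did not pass, nor did Slc7a4 (-0.14, adjusted p = 0.28). Slc7a14, with 0.741 to 5.35 CPM over the baseline and day 7 mice, had a value of 0.78 (SE 0.31, adjusted p = 0.077).

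Slc36a1 (PAT1), which exports small amino acids from the lysosome with protons, was the member of the lysosomal and proton-coupled group that fell. Its levels were 17.7, 24.6 and 29.4 CPM at baseline and 16.1, 19.4 and 21.7 CPM at day 7, with 2 day 7 mice below the baseline range. The log2 fold change was -0.38 (SE 0.09, adjusted p = 0.0046), and 0.077 when scaled by total counts. Slc36a4 (-0.14) and the lysosomal arginine sensor Slc38a9 (-0.09) had adjusted p-values of 0.55 and 0.52.

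In the Slc6 family, Slc6a9 had 82.2, 89.9 and 110 CPM at baseline, 47.3, 72.7 and 80.3 CPM at day 7 and 64.0, 70.9 and 96.0 CPM at day 14. No day 7 mouse reached the baseline range. The log2 fold change was -0.37 (SE 0.09, adjusted p = 0.0058), and 0.072 when scaled by total counts. This gene is uncertain, since up to 52.7% of its exonic length overlaps gene models on the opposite strand. That figure adds the overlaps with Ccdc24 and Gm17114, which may share bases. The strand setting of the counting is not given in the sources used here. The branched-chain amino acid and proline transporter Slc6a15 (-0.25, adjusted p = 0.34), the taurine transporter Slc6a6 (0.15, adjusted p = 0.44) and the creatine transporter Slc6a8 (-0.23, adjusted p = 0.20) did not pass.

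The facilitated carriers, which let amino acids leave along their gradient, held the member with the larger of the 2 rises. Slc16a10 (TAT1, chr10:40033532-40142258, minus strand), a carrier of tyrosine, tryptophan and phenylalanine, was scarce, with 0.809, 2.61 and 3.84 CPM at baseline, 3.71, 4.58 and 5.61 CPM at day 7, and 2.5, 4.26 and 5.52 CPM at day 14. Of the 8 day 7 mice, 6 were above every baseline mouse. It rose by a log2 fold change of 0.91 (SE 0.22, adjusted p = 0.0041), or 1.87-fold, on 5 to 74 counts per mouse. Slc43a2 (LAT4), a carrier of leucine and other large neutral amino acids, had 0.64 (SE 0.33, adjusted p = 0.20). Its relative Slc43a3, which carries purine bases, had 0.36 (adjusted p = 0.17).

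Within the Slc1 family, Slc1a3 (GLAST), which takes up glutamate and aspartate, rose by 0.22 (SE 0.07, adjusted p = 0.022), from 14.4, 16.7 and 20.1 CPM at baseline to 19, 19.8 and 22.6 CPM at day 7. Only 3 of the 8 day 7 mice exceeded the baseline range, and the call ended without day 7 mouse 16 (adjusted p = 0.055). The exchangers Slc1a4 (-0.05, adjusted p = 0.77) and Slc1a5 (0.04, adjusted p = 0.64) had values near 0. Slc1a2 (GLT-1), the main glutamate transporter of astrocytes, had -0.49 (SE 0.18, adjusted p = 0.062).

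**Figure D2:**
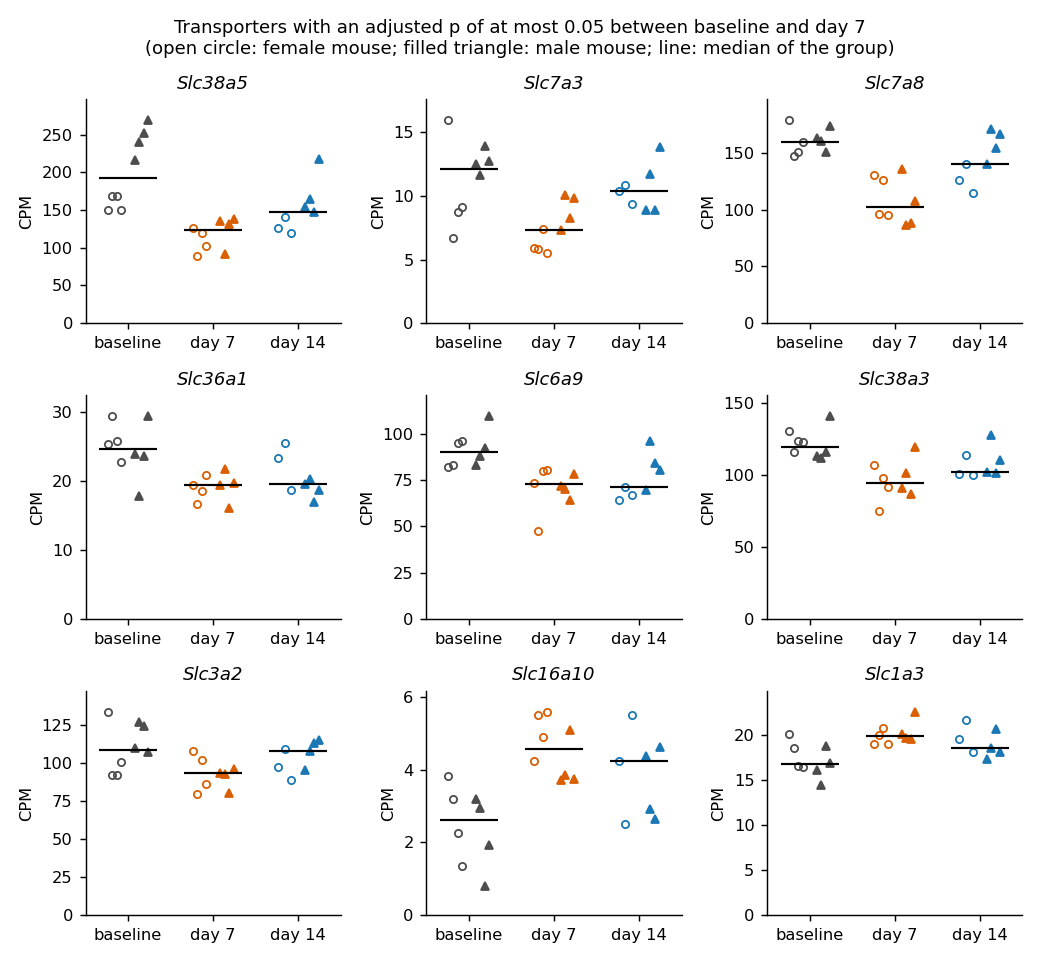
CPM in every mouse for the 9 transporters with an adjusted p of at most 0.05 between baseline and day 7 (open circles female, filled triangles male, line at the median). In Slc38a5, Slc7a8 and Slc6a9 all 8 day 7 mice lie below all 8 baseline mice, whereas the other 6 panels show overlap. By total counts the sign of Slc36a1, Slc38a3, Slc6a9 and Slc3a2 turned.

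At day 14 post-injury 1 member had an adjusted p of at most 0.05. Slc38a5 was lower than at baseline by 0.42 on the log2 scale (SE 0.10, adjusted p = 0.038), a call made for 0.504% of all genes in that direction, and it ended in 13 of the 23 fits that left out 1 mouse (highest adjusted p = 0.10). None of the 32 members was a DEG at day 14 in edgeR (0.0880% of all genes were lower and 0.672% higher DEGs) or in DESeq2, while 6 had an unadjusted p under 0.05, against 13% of all genes. The median log2 fold change was -0.04 over the members and 0.01 over all genes. Slc16a10 had a value of 0.67 (SE 0.23, adjusted p = 0.15), with 4 of 7 mice above the baseline range. Slc36a1 and Slc6a9 both had -0.27, with adjusted p-values of 0.17.

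From day 7 to day 14 the level of Slc7a8 rose by 0.41 (SE 0.10, adjusted p = 0.029), where 0.952% of all genes rose. This call ended in 8 of the 23 fits without 1 mouse and in a fit of only the mice compared (adjusted p = 0.094). Slc7a3 had 0.49 (SE 0.14, adjusted p = 0.073) and Slc38a5 0.34 (SE 0.10, adjusted p = 0.095). In DESeq2 the adjusted p passed for all 3 of these genes, at 0.0026 in Slc7a8 and 0.033 in both Slc7a3 and Slc38a5. In neither edgeR nor DESeq2 was any member a DEG between the injured groups, and 6 had an unadjusted p under 0.05 in edgeR, against 13.8% of all genes. The comparisons with baseline share the baseline mice, so their values stand side by side and are not independent.

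**Figure D3:**
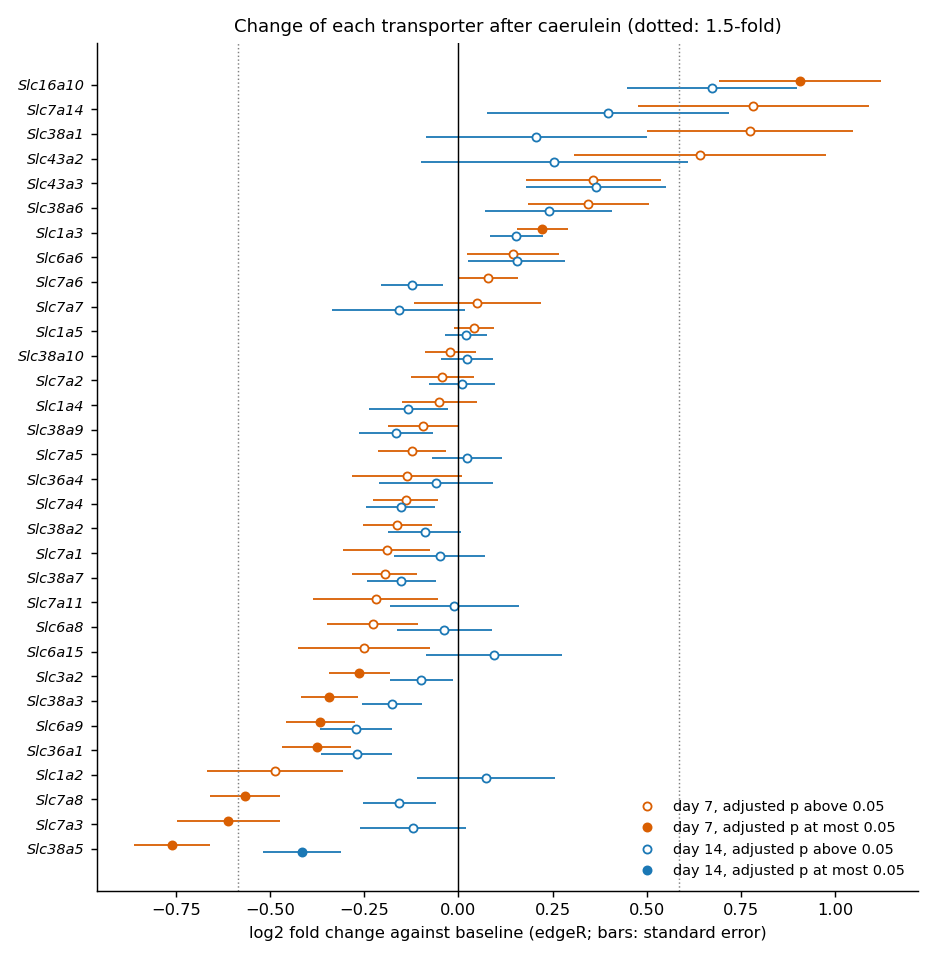
Log2 fold change against baseline of the 32 transporters at day 7 and day 14, ordered by day 7, with bars for the standard error, dotted lines at 1.5-fold and filled points where the adjusted p was at most 0.05. Slc38a5 is lowest at both times (-0.76 and -0.42) and Slc16a10 highest (0.91 and 0.67). By total counts Slc36a1, Slc38a3, Slc6a9 and Slc3a2 had positive values at day 7.

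Sex was compared over all 23 mice with time point in the model. Slc1a2 (chr2:102658659-102790784, plus strand) was the only DEG among the members and was lower in males, as 0.136% of all genes were (0.288% without the fold threshold). At baseline its 4 females had 4.30, 5.80, 7.06 and 6.05 CPM and its 4 males 2.70, 3.48, 3.07 and 3.32 CPM. At day 7 the females had 3.14, 3.35, 3.35 and 3.53 CPM and the males 2.91, 2.28, 3.07 and 2.87 CPM. At day 14 the 3 females had 9.08, 4.90 and 6.69 CPM and the 4 males 4.18, 3.28, 1.63 and 2.65 CPM. Every female was above every male at each time point, but at day 7 only by 3.14 against 3.07 CPM. In separate edgeR contrasts of a fit with sex and time point crossed, male minus female was -0.89 at baseline (SE 0.23, adjusted p = 0.21). It was -0.26 at day 7 (SE 0.23, adjusted p = 0.98) and -1.22 at day 14 (SE 0.23, adjusted p = 0.037). Tested directly in that edgeR fit, the sex difference departed from that at baseline by 0.63 at day 7 (SE 0.32, unadjusted p = 0.063, adjusted p = 0.93). At day 14 it departed by -0.34 (SE 0.33, unadjusted p = 0.32). A change of the sex difference with time was therefore not shown. The share of all genes in which every female lay above every male was not counted. The log2 fold change, male minus female, was -0.78 (SE 0.15, adjusted p = 0.0079), on 13 to 81 counts per mouse, and it stayed past the threshold without any 1 mouse (highest adjusted p = 0.025).

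Slc38a5 differed by sex in the opposite direction (0.40, SE 0.08, adjusted p = 0.018), where 0.272% of all genes were higher in males. Baseline females had 149, 169, 169 and 150 CPM and baseline males 216, 239, 252 and 269 CPM, with no overlap. At day 7 the females had 127, 88.4, 120 and 103 CPM and the males 136, 91.6, 131 and 138 CPM, and the sexes overlapped. At day 14 the females had 127, 141 and 119 CPM and the males 153, 164, 148 and 218 CPM, again apart. In separate contrasts of the fit with sex and time point crossed, the day 7 change of Slc38a5 was -0.55 (SE 0.13, adjusted p = 0.020) in females and -0.98 (SE 0.13, adjusted p = 5.7e-05) in males. The difference between these changes was -0.43 (SE 0.19, unadjusted p = 0.030, adjusted p = 0.91), so a difference between the sexes in the response was not shown. The sex call of Slc38a5 was lost with no time term in the model (adjusted p = 0.43) and without mice 5, 10, 15 and 21 (adjusted p = 0.074). In DESeq2 Slc1a5 was also higher in males (0.18, adjusted p = 0.015).

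No member passed the test of the interaction of sex and time point, by edgeR or by DESeq2. In edgeR 2 members had an unadjusted p under 0.05 at day 7 and 1 at day 14, against 5.45% and 3.66% of the 12933 genes tested there. The share of all genes that passed was 0.00773% at day 7 and 0% at day 14. The smallest adjusted p among the members was 0.91, for Slc7a6 at day 7.

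**Figure D4:**
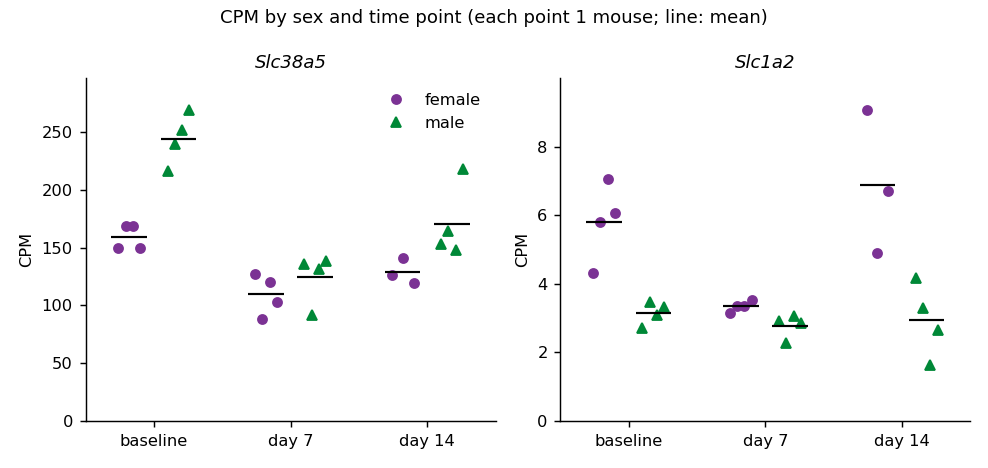
CPM of Slc38a5 and Slc1a2 in each mouse by sex (females circles, males triangles, line at the mean) and time point. Baseline males (216 to 269 CPM) stand above baseline females (149 to 169 CPM) in Slc38a5. Slc1a2 is higher in every female than in every male at each time point, though only narrowly at day 7.

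Because a light chain reaches the membrane only with its heavy chain, the levels of Slc3a2 and its 5 measured light chains were compared across the 23 mice after subtracting the mean of each group of sex and time point. Slc7a5 varied most closely with Slc3a2, with Pearson's r = 0.77 (permutation p = 7e-05, adjusted p = 3.5e-04 over the 5 pairs) and Spearman's rho = 0.79 (permutation p = 1.4e-04, adjusted p = 7e-04). Without mice 1 and 10, the farthest from the median of Slc3a2, r was 0.72 (permutation p = 7.7e-04). Slc7a8 gave r = 0.63 (permutation p = 0.0037, adjusted p = 0.0094) and rho = 0.67 (permutation p = 0.0039, adjusted p = 0.0098), and r = 0.58 without those mice (permutation p = 0.016). Slc7a11 gave r = 0.65 (permutation p = 0.0078, adjusted p = 0.013) and rho = 0.53 (permutation p = 0.018, adjusted p = 0.030), and r = 0.61 without them (permutation p = 0.014). For the cationic light chains r was -0.18 in Slc7a6 (rho = -0.11, permutation p = 0.50 and 0.66, adjusted p = 0.50 and 0.66) and -0.36 in Slc7a7 (rho = -0.40, permutation p = 0.14 and 0.10, adjusted p = 0.17 and 0.13). Without mice 1 and 10 these were -0.15 (permutation p = 0.56) and -0.14 (permutation p = 0.61). Scaled by total counts, the r of Slc7a8 was 0.50 (adjusted p = 0.047), its rho of 0.48 no longer passed (adjusted p = 0.081), and the other 4 pairs kept their call. All values of 1 mouse share its library and its scaling. Correlations of Slc3a2 with genes other than these light chains were not measured, so whether these pairs are closer than usual was not tested.

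Of 26 genes of the amino acid response and ATF4 targets, 7 fell at day 7 and none rose (8 and none in DESeq2). Over all genes tested in edgeR, 9.49% fell and 8.50% rose by the same rule. Their median log2 fold change was -0.19. It was 0.26 when scaled by total counts, where 1 of the 26 fell and 15 rose, as did 9375 of all 12500 genes tested. Atf4 itself had -0.15 (adjusted p = 0.22) and Asns, which makes asparagine, -0.22 (adjusted p = 0.062). The DEGs were Psat1, an enzyme of serine synthesis (-0.74, SE 0.13, adjusted p = 3.9e-04), and Nupr1, a stress-induced nuclear protein (-0.62, SE 0.12, adjusted p = 5.4e-04). Psat1 went from 42.5, 72.7 and 90.1 CPM at baseline to 30.6, 42.0 and 59.2 CPM at day 7, with overlap. The further genes that fell were Atf5 (-0.56), Cbs (-0.44), Pycr1 (-0.38), Mthfd2 (-0.33) and Gpt2 (-0.32). Ddit3 (0.42, adjusted p = 0.14), Trib3 (0.20, adjusted p = 0.48) and Chac1 (-0.28, adjusted p = 0.42), which respond to strong stress, did not pass. In the comparison of the sexes, 24 of the 26 genes had higher values in males, while 50.1% of all genes had lower values in males. The 26 genes were measured in the same mice and are not independent of each other. Higher in males with an adjusted p of at most 0.05 (0.272% of all genes) were 3 of them. These were Trib3 (0.85, SE 0.15, adjusted p = 0.0048), Ddit3 (0.78, SE 0.16, adjusted p = 0.019) and the cysteine-making enzyme Cth (0.51, SE 0.11, adjusted p = 0.032). In DESeq2 7 of the 26 passed as higher in males, and in edgeR 18 had an unadjusted p under 0.05, against 8.83% of all genes.

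Among 30 tested genes of mTORC1 and lysosomal amino acid sensing, 5 fell at day 7 and none rose, in edgeR and in DESeq2 alike, with a median of -0.11. The edgeR counts of this paragraph stand beside 9.49% of all genes that fell and 8.50% that rose. Whether the list differs from all genes was not tested. By total counts the median was 0.36, none fell and 23 rose, as did 9375 of all 12500 genes tested. Mtor, the kinase itself, fell by 0.32 (SE 0.06, adjusted p = 2.2e-04) and was also lower at day 14 by 0.22 (adjusted p = 0.049). Tsc2, which restrains the complex, fell by 0.44 (SE 0.07, adjusted p = 8.2e-05). Rptor (-0.30), the activator Rheb (-0.24) and the lysosomal GTPase Rragc (-0.17) had adjusted p-values from 0.0037 to 0.043. Of 13 tested amino acid and peptide carriers outside the families studied, none passed at day 7 in edgeR or DESeq2 (3 at an unadjusted p under 0.05, against 31.6% of all genes, and 10 rose by total counts), among them the mitochondrial carrier Slc25a13 (0.09, adjusted p = 0.57). Of 11 partner and regulator proteins, the ubiquitin ligase Nedd4 (-0.16) and the kinase Mapk14 (-0.23) fell, whereas by total counts none of the 11 fell and 10 rose. Arl6ip5, a regulator of glutamate transport, rose by 0.42 (SE 0.10, adjusted p = 0.0046), and Cd44, a surface receptor that stabilises Slc7a11, rose by 1.01 (SE 0.30, adjusted p = 0.022).

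Markers of several cell types moved with the time point, which in bulk tissue does not separate cell numbers from RNA per cell. Acinar markers, all 13 of them above 0 in every mouse, summed to 395029 to 583167 CPM at baseline and 232202 to 356365 CPM at day 7, without overlap, and to 359340 to 434217 CPM at day 14. At day 7, 11 of the 13 fell, against 9.49% of all genes. The median of their log2 fold changes was -0.58, with values from -0.94 to 0.02. By total counts 7 of the 13 fell and 2 rose. Fibroblast and stellate markers (7 of 8), macrophage markers (7 of 10) and islet markers (5 of 10) rose, where 8.50% of all genes rose. Of the 8 endothelial markers 3 fell (1 fell and 1 rose by total counts). Duct markers were mixed, since 3 of 8 rose but 4 had negative values, with a median log2 fold change of 0.03. In DESeq2 3 duct markers rose and 1 fell. None of the 6 adipocyte and 2 nerve markers tested passed in edgeR or DESeq2, nor at an unadjusted p under 0.05. Summed macrophage markers overlapped between the groups, at 59.9 to 291 CPM at baseline and 144 to 467 CPM at day 7. Intestinal markers summed to 49.5 CPM in day 14 mouse 19 and to at most 6.64 CPM in any other mouse. The part of these cell types in the values of the transporters was not tested.

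Lymphocyte markers separated mice within groups. Their sum was 65.7 to 119 CPM in baseline mouse 5, day 7 mice 10 and 15 and day 14 mouse 21, and at most 19.6 CPM in the other 19, with up to 9 of the 10 markers at 0 in a mouse. None of the 8 tested lymphocyte markers passed at day 7 in edgeR or DESeq2, nor did any have an unadjusted p under 0.05. In mice 5, 10, 15 and 21, macrophage markers summed to 291, 467, 396 and 264 CPM and adipocyte markers to 97.9, 211, 84.0 and 108 CPM. The highest sums of the other 19 were 299 and 103 CPM, both in day 7 mouse 14. Which of these cell types goes with the levels below was not tested. The 4 mice of high lymphocyte markers had the 4 highest levels of Slc43a2 (9.69, 12.4, 9.39 and 7.71 CPM, the other mice 1.39 to 6.82 CPM). Slc38a1 was 12.0, 20.9, 15.6 and 13.5 CPM in them and 3.83 to 12.9 CPM in the rest. Without these mice, a choice made after their values were seen, Slc38a1 passed at day 7 with a log2 fold change of 0.65 (SE 0.18, adjusted p = 0.013), as it did with all mice in DESeq2 (0.78, adjusted p = 0.024), and Slc43a2 had 0.60 (SE 0.23, adjusted p = 0.076). Of the 9 members that passed at day 7 with all mice, 7 still did without these 4, and Slc3a2 (adjusted p = 0.081) and Slc1a3 (adjusted p = 0.066) did not. Without baseline mouse 5 alone both Slc38a1 (0.98, adjusted p = 0.016) and Slc43a2 (0.99, adjusted p = 0.025) were DEGs. Without day 7 mouse 10 alone they had 0.55 (adjusted p = 0.14) and 0.39 (adjusted p = 0.44). Slc38a1 was also a DEG without mouse 9, 11, 13 or 21 alone, with adjusted p-values from 0.039 to 0.049.

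**Figure D5:**
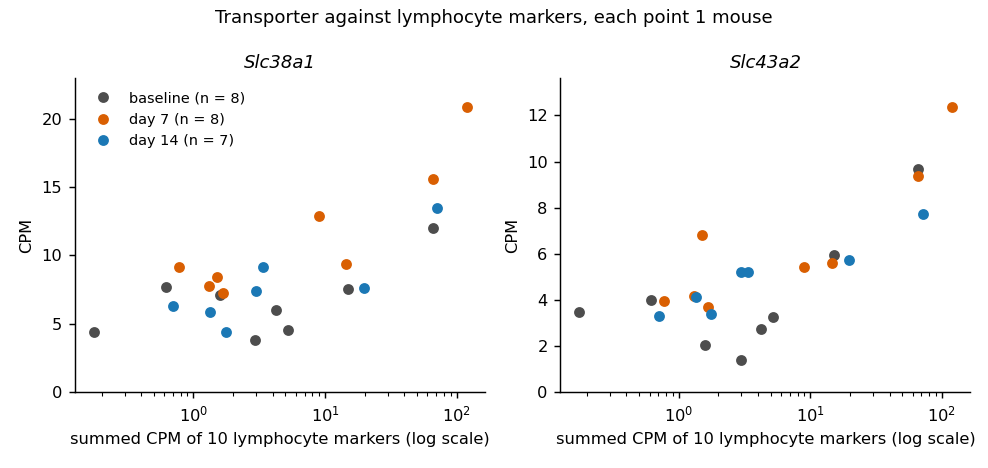
CPM of Slc38a1 and Slc43a2 in each of the 23 mice against the summed CPM of 10 lymphocyte markers on a log axis, coloured by time point. The 4 mice at the right (65.7 to 119 CPM) hold the 4 highest values of Slc43a2 and 3 of the 4 highest of Slc38a1. Their summed macrophage and adipocyte markers were also high.

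The 20 members below the minimum had 2 to 170 counts in all 23 mice together. The highest were Slc43a1 (LAT3), with 170 counts and at most 16 in a mouse, and Slc3a1, with 151 counts. Slc6a17, a vesicular carrier of neurons, had 106 counts, and the proton-coupled Slc36a2 had 100 counts, at most 32 in a mouse. The intestinal and renal neutral amino acid transporter Slc6a19 had 34 counts, Slc1a1 (EAAC1), a glutamate transporter of kidney and nerve, 42 counts and the epithelial transporter Slc6a14 8 counts. Changes in these genes were not tested.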

How the data were processed

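Total RNA of 23 pancreas heads, 1 per mouse, was sequenced after ribosomal depletion with a stranded kit. The authors deposited 1 table of raw read counts per gene symbol and mouse, unnormalised. Per the submitters' processing notes, reads were trimmed (Trim Galore, cutadapt), aligned to mm10 with STAR 2.5.2a and counted with featureCounts. The annotation and the strand setting are not given in the sources used here. Reads of near-identical genes or overlapping exons may therefore be split or missed.

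Groups and sex came from the sample labels. Counts were tested with edgeR 4.0.16 (TMM, filterByExpr with the design, robust quasi-likelihood fit, time point plus sex, all 23 mice), with Benjamini-Hochberg adjustment over the 12500 genes tested. The interaction used the 6 groups of sex and time point. DEGs passed 0.05 for the adjusted p and 1.5-fold for the change. Each standard error was derived from the log2 fold change and the F statistic (size over root F). Alternatives were DESeq2 1.42.0, other scalings, filters and covariates (the mapping rate is the study's own figure per library), and leaving out each mouse. Lengths came from GENCODE vM21 basic (GRCm38). Pair correlations used log2 CPM with a prior count of 2 and 100000 permutations within the groups of sex and time point. The code was tested on simulated data.

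Members with an adjusted p of at most 0.05 in any comparison of time points or sexes, and the 10 of highest level per kb, are given in full. Of the other lists, the genes named are those called at day 7 or 14, at most 6 a list, and a few fixed by name, and the remaining names are additions made after their values were seen. Members and lists were chosen with earlier results of these data known. Symbols of these families outside the rule are not reported here. The total counts of 7059890 to 9567446 limit the precision of genes with few counts. No count table held columns of other samples.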

Additional observations from a re-analysis of the deposited data

Results flagged for a closer look

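In each of 96 groups (32 transporters at 3 time points) the highest and the lowest mouse were compared with the rest by Dixon's ratio of gap to range. In 3 groups 1 mouse stood apart, where chance alone flags about 1 group in 20. Slc38a1 in baseline male mouse 5 was 12.0 CPM, against 3.83 to 7.68 CPM in the other 7 baseline mice. That mouse also had the highest summed lymphocyte, macrophage and adipocyte markers of the baseline group. Slc6a8 in day 14 male mouse 23 was 3.64 CPM, below the 4.57 to 5.04 CPM of the other 6. Slc7a7 in baseline female mouse 1 was 2.00 CPM, below the 2.70 to 3.14 CPM of the other 7.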

How the results depend on the processing

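Of 426 recalculated log2 fold changes of called transporters, 374 kept direction and call, 48 kept direction but lost the call and 4 reversed. For each value, 23 of the 32 or 33 settings left out 1 mouse and shared most data with the main fit, which favours agreement. Of the 9 members that passed at day 7, 4 had an adjusted p of at most 0.05 in either direction by total counts. With the mapping rate as a covariate 1 did. The 4 reversals came with scaling by total counts at day 7, for Slc36a1 (0.077), Slc38a3 (0.10), Slc3a2 (0.19) and Slc6a9 (0.072). That scaling by construction moves all genes, and it gave 8 DEGs among the members at day 7 in place of 3, and 1 in place of 0 at day 14. With the mapping rate as a covariate 1 DEG was left at day 7, and the cause was not tested. Without the fold threshold the counts were 9 at day 7, 1 at day 14, 1 between day 7 and day 14 and 2 between the sexes in place of 1. Leaving out each mouse gave 3 to 5 at day 7 and 0 to 1 between day 7 and day 14, where the 1 was Slc1a2 without mouse 23. The DEGs over all genes at day 7 were 637, against 3807 scaled by total counts, 348 with at least 10 counts in every mouse and 98 with the mapping rate, and at day 14 they were 95, 448, 66 and 5. All 10 recalculated pair correlations kept their call by Pearson's r. A separate fit of only the mice compared does not exist for the sexes. No paired analysis was possible because each mouse has its own number and was sampled once. Low counts limit Slc16a10 (5 to 74 a mouse), Slc7a14 (6 to 48) and Slc38a6 (8 to 39).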
